A study of Mus musculus with 6 samples.

Results

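The genes described here are the canonical histone genes of the mouse, taken as every row of the count files whose symbol is H1f, H2ac, H2bc, H3c or H4c followed by a number. The rule found 72 of 40213 rows, namely 11 genes for the linker histone H1, 18 for H2A, 18 for H2B, 12 for H3 and 13 for H4. By annotation, 54 of them lie on chromosome 13, 10 on chromosome 3, 3 on chromosome 11, 3 on chromosome 6 and 2 on chromosome 15. They were measured in bone marrow-derived macrophages of C57BL/6 mice. Marrow precursors were kept for 4 days in medium with 10% serum and the growth factor M-CSF at 25 ng/ml, then plated. In the 3 MNP samples the cells received 50 µg of polystyrene micro- and nanoplastics (MNP) for 24 h, in a volume that the labels do not state. The 3 control samples had the same culture and received none. The labels name no genotype beyond the strain and no age of the mice, and do not say whether replicates came from separate animals or cultures, so p-values measure only the spread between these samples.

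Replication-dependent histone genes have no introns, sit in a few dense clusters and are transcribed mainly while a cell copies its DNA. NPAT drives their transcription at the histone locus body, and most of their messages end in a short stem-loop in place of a poly(A) tail, where SLBP binds to direct processing, translation and decay. Macrophages grown in M-CSF still divide, so part of such a culture is in S phase. H1f0 and H1f10 match the symbol rule but are replacement linker histones made outside S phase, and H1f6, H1f7, H1f8, H1f9, H2ac1 and H2bc1 belong to the germ line. For these 8 genes the name "replication-dependent" does not hold. H2ac25, H2bc27 and H4c16 have the RefSeq names H2aw, H2bu2 and H4f16, which the list of histone variants used below also held. They were counted here as members only, and whether the name "replication-dependent" holds for them was not tested. H1f0 had a mean of 28.0 scaled CPM (CPM, counts divided by the library's total in tested genes and its TMM normalization factor and put on a common scale), and H1f10 had 0.533. The 6 germ-line genes reached at most 0.288 scaled CPM in any library.

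Total RNA was used, per the labels, so messages without a poly(A) tail could enter the libraries; a selection or depletion step is not given in the sources used here. The stem-loop was looked for on the sense strand, as GG, any 2 bases, CTTTT, any base, AG, any 2 bases and CC, in the annotated transcripts of GENCODE vM21 (build GRCm38). An annotated transcript with these 16 letters was present for 44 of the 72 members, against 0.0814% of the 55269 other genes. By class these were 4 H1, 11 H2A, 10 H2B, 8 H3 and 11 H4 genes. Where the letters were missing, nothing follows about the message, since many annotated histone transcripts stop early. Nor do the letters show that a counted message had no tail. Some annotated transcripts run on past them, by 4884 bases in H1f3 and 1643 in H2ac25. Among the genes called by the test, AATAAA, a poly(A) signal, stood in the last 60 bases of a transcript of H2ac25, H4c1 and H4c11. There were 6 versions of the 16 letters. The commonest, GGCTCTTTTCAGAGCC, stood in 26 members, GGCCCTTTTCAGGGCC stood in 7 and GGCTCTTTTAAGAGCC in 6. The sites of the genes that passed the test are shown with 5 bases on each side, since those genes carry the comparison; capitals mark the stem-loop, whose outer bases pair with each other, and no such letters were found for H4c1.
H4c8: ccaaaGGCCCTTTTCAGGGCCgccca
H4c11: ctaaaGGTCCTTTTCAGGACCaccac
H3c6: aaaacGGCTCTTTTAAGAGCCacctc
H2bc8: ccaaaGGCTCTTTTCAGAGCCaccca
H2bc12: ccaaaGGCTCTTTTAAGAGCCactaa
H2ac7: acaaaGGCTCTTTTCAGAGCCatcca
H2ac25: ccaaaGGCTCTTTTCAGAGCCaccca
The site of H2ac25, the only gene called lower, is of the same form as those of 6 of the 7 genes called higher, and H2bc8 and H2ac25 have identical letters over the whole stretch.

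Many of these genes are near copies, and this limits what a count can say about 1 of them. In the vM21 transcripts, a share of all 100-base windows also occurs in a transcript of another gene. That share had a median of 0% in the H1 genes, 64.5% in H2A, 36.4% in H2B, 49.7% in H3 and 18.96% in H4. It was at least 50% in 25 members and under 10% in 21. How reads that match several copies were assigned is not given in the sources used here, nor is the strand setting. A sum over a class does not change when reads move between copies of that class. It would change if reads were dropped or went to a gene outside the class: all windows of H2ac19 and H3c14, 88.3% of those of H2ac18, 77.1% of H3c13 and 61.6% of H3c15 also occur in the annotated transcript Gm20634, which is no member and was not analysed here, and 21.7% of those of H1f4 occur in H2bc6.

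The 6 libraries held 20262859 to 23042146 counts, of which the members took 0.218% to 0.294%. Controls had counts for 20222 to 24062 genes and MNP libraries for 18240 to 18672. Of the 12 macrophage markers fixed for this work, none was at 0, and their summed level was 20266 to 21158 scaled CPM in controls and 17722 to 18856 after MNP, with 8 of 12 lower by the test. Neutrophil markers summed to 269 to 359 scaled CPM in controls and 242 to 274 after MNP, with 5 lower and 1 higher among 10 tested. Markers of proliferating progenitors summed to 46.5 to 53.2 and 50.4 to 58.5, with 1 higher (Kit) and 1 lower (Cd34) among 7 tested; their median log2 fold change of -0.77 has the opposite sign to the sum. Dendritic cell markers summed to 11.6 to 15.7 in controls and 4.44 to 7.10 after MNP, with 4 lower among 8 tested. Megakaryocyte markers summed to 17.8 to 25.5 and 11.9 to 14.0, and endothelial markers to 106 to 119 and 110 to 136, each with 1 lower among 3 tested. Most of the endothelial sum was Vwf, at 88.2 to 96.96 scaled CPM in controls and 97.07 to 123 after MNP. The endothelial gene called lower was Kdr, and the median log2 fold change of that list was -0.46. Erythroid, mast cell, B cell, T and NK cell, stromal and germ-line markers summed to under 4 scaled CPM in every library. The part of these markers in the histone values was not tested, and in bulk samples fewer cells of a type and less RNA per cell cannot be told apart.

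The comparison of MNP with control samples asks how histone messages differ after 24 h with plastic particles. Summed over classes, messages of H3 and H4, the inner core of the nucleosome, were 1.23 and 1.20 times as high in the MNP samples as in controls, while the ratios for H1 and H2A were 0.952 and 1.00. The H3 sum was 153, 192 and 195 scaled CPM in controls 1 to 3 and 211, 255 and 199 in MNP samples 1 to 3, a log2 ratio of means of 0.30. The H4 sum was 344, 452 and 439 in controls and 465, 547 and 472 after MNP, a log2 ratio of 0.27. For both classes every MNP sample lay above every control, by a narrow margin for H3 in MNP sample 3 and for H4 in MNP sample 1. The groups of both overlapped when the libraries were scaled by their totals alone, with log2 ratios of 0.21 for H3 and 0.18 for H4. The ratio depended on single libraries: without control 1 it was 0.19 for H3 and 0.15 for H4, and without MNP sample 2 it was 0.19 for both.

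H2A and H2B form the dimers on the outside of the nucleosome core, and their sums overlapped between the groups. The H2B sum was 488, 684 and 717 scaled CPM in controls and 655, 792 and 727 after MNP, a log2 ratio of 0.20 that fell to 0.05 without control 1 and to 0.13 without MNP sample 2 and was 0.11 by library totals. The H2A sum was 628, 817 and 864 in controls and 688, 832 and 789 after MNP, a log2 ratio of 0.00 that was -0.09 by library totals and -0.13 without control 1. The H1 sum was 503, 656 and 620 in controls and 511, 586 and 595 after MNP, a log2 ratio of -0.07 that was -0.16 by library totals, -0.18 without control 1 and 0.01 without control 2. In every class control 1 was the lowest library of its group. Over all 72 members the sum was 2116, 2801 and 2834 scaled CPM in controls and 2530, 3013 and 2782 after MNP. The ranges overlapped, and the log2 ratio of 0.10 became -0.02 without control 1.

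Per kilobase of coding sequence, taken as the median coding length of a class, the mean summed level over the 6 libraries was 1959 scaled CPM for H2A, 1777 for H2B, 1453 for H4, 901 for H1 and 489 for H3. The core histones are made in equal numbers as proteins, and the H3 level stood lowest on this per-length scale of messages. H3 and H2A, at the ends of this order, had the highest shares of windows in common with other genes, and the part of read assignment in the order was not tested.

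**Figure D1:**
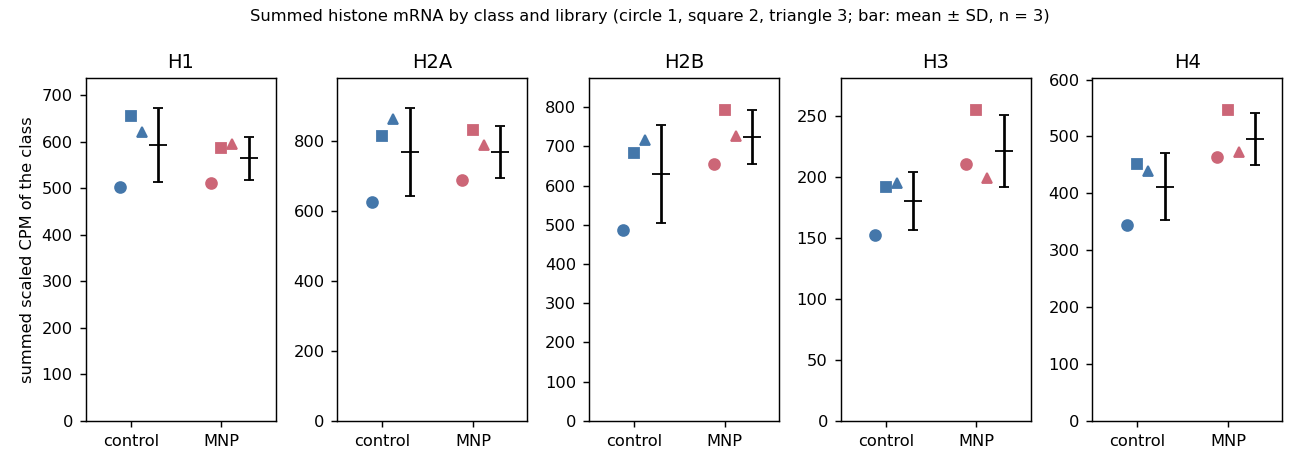
Summed scaled CPM (y axis, linear from 0, one scale per panel) of the members of each histone class in the 3 control and 3 MNP libraries (x axis); circles, squares and triangles are libraries 1, 2 and 3, and black bars show mean ± SD. The MNP points lie above all control points for H3 (199 to 255 against 153 to 195) and H4 (465 to 547 against 344 to 452) and overlap them for H1, H2A and H2B.

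The makeup of the histone message pool does not depend on library scaling, since each class is taken as a share of all histone counts of its own library. H1 took 23.8%, 23.4% and 21.9% of histone counts in controls 1 to 3 and 20.2%, 19.5% and 21.4% in MNP samples 1 to 3. H2A took 29.7%, 29.2% and 30.5% in controls and 27.2%, 27.6% and 28.4% after MNP. Both shares were lower in every MNP sample than in every control, by 2.66 percentage points for H1 and 2.04 for H2A between group means. H2B took 23.1%, 24.4% and 25.3% in controls and 25.9%, 26.3% and 26.1% after MNP. H4 took 16.3%, 16.1% and 15.5% in controls and 18.4%, 18.2% and 16.98% after MNP, with H2B and H4 higher in every MNP sample. H3 took 7.21%, 6.86% and 6.89% in controls and 8.33%, 8.47% and 7.15% after MNP, where MNP sample 3 fell just below control 1. H3 and H4 together went from 22.95% ± 0.563 (SD, n = 3) in controls to 25.8% ± 1.46 after MNP, a difference of 2.87 percentage points that lay between 2.43 and 3.71 when any library was left out.

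The 5 shares add up to 100% in each library, so a gain in 1 class must be matched by a loss in others, and they are not separate results. Without the 4 pairs of near-identical genes described further on, an alternative chosen after seeing the data, the H2A difference shrank from -2.04 to -1.03 percentage points and the H2B difference from 1.84 to 1.20. The H1 difference was then -3.43 and that of H3 and H4 together 3.27. Control 1, whose histone sum was the lowest of the 6, had shares inside the range of the other controls for H2A and outside it for H1, H2B, H3 and H4.

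**Figure D2:**
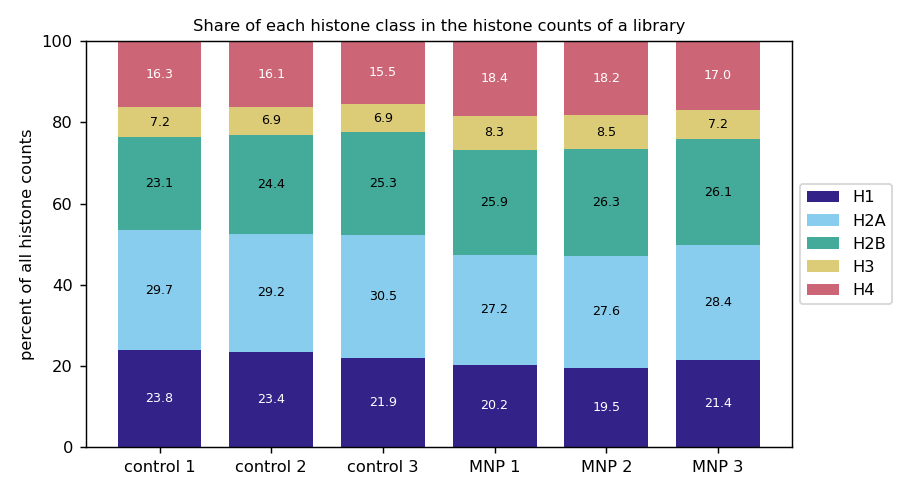
Percent of all histone counts (y axis) taken by each class in each library (x axis), stacked to 100. H1 and H2A hold a smaller share in each of the 3 MNP libraries than in any control, and H2B and H4 a larger one.

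Single genes were tested with the edgeR quasi-likelihood test over all 12893 genes that passed its filter on low counts. Of the members, 63 passed and 9 did not. Called at an adjusted p under 0.05, 7 members were higher and 1 lower after MNP. The background over all genes tested was 9.11% higher and 8.35% lower, and the members' shares were 11.1% higher and 1.59% lower. In this fit the share called higher was close to that of all genes. With no filter on low counts it was 31.9% of the 72 members against 5.32% of all 28815 genes then tested. Dropping the filter took the genes tested from 12893 to 28815 but the members only from 63 to 72. The 5.32% thus rests on many more genes with low counts, and the 2 shares are not on a like basis. The calls changed too: members called higher went from 7 to 23, and all genes called higher from 1174 to 1533. The part of each change in the gap between the shares was not tested. In 12 members every MNP value lay above every control value and in 1 every value lay below, that is 19.05% and 1.59% of those tested, against 17.2% and 17.4% over all genes. Unadjusted p was under 0.05 for 21 members, 33.3% against 29.9% of all genes. The log2 fold change was above 0 for 49 of the 63, against 48.2% of all genes, with a median of 0.21 against -0.01. These counts describe the list and are no test of it.

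The calls moved with the libraries and the scaling. Without control 1 there were 4 members higher and 6 lower. The latter included H2bc24, which held most counts of its pair with H2bc23 only in control 3 (described further on). Without MNP sample 2 there were 1 and 1. Scaled by library totals alone there were 2 higher and 3 lower, and with no filter 23 and 2. The members' share of higher calls was below that of all genes without control 1 (6.15% against 9.44%), without MNP sample 2 (1.56% against 5.99%) and by library totals (3.17% against 5.87%). It was above that of all genes without control 2 (14.1% against 6.61%) and without control 3 (12.7% against 8.31%). The same held without MNP sample 1 (13.8% against 7.55%) and without MNP sample 3 (9.23% against 5.90%). The members' share of lower calls was 9.23% against 7.63% without control 1, 1.56% against 5.03% without MNP sample 2 and 4.76% against 15.1% by library totals. H4c8 among the higher genes and H2ac25, the lower one, stayed called in each of these fits. The median log2 fold change of the tested members was 0.09 without control 1, 0.11 without MNP sample 2 and 0.12 by library totals.

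By class, 1 of 12 tested H3 genes was called higher and none lower, and all 12 had a log2 fold change above 0, with a median of 0.37. Of 12 tested H4 genes 3 were called higher and none lower, with a median of 0.29. Of 15 tested H2B genes 2 were called higher and none lower, with a median of 0.24. Of 17 tested H2A genes 1 was called higher and 1 lower, with a median of 0.14. Over all genes tested, 9.11% were called higher and 8.35% lower. None of the 7 tested H1 genes was called by edgeR, none had an unadjusted p under 0.05, and the median was -0.06. DESeq2 also called none of the H1 genes, while H1f2 passed as lower by library totals and H1f2 and H1f3 did so without control 1.

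**Figure D3:**
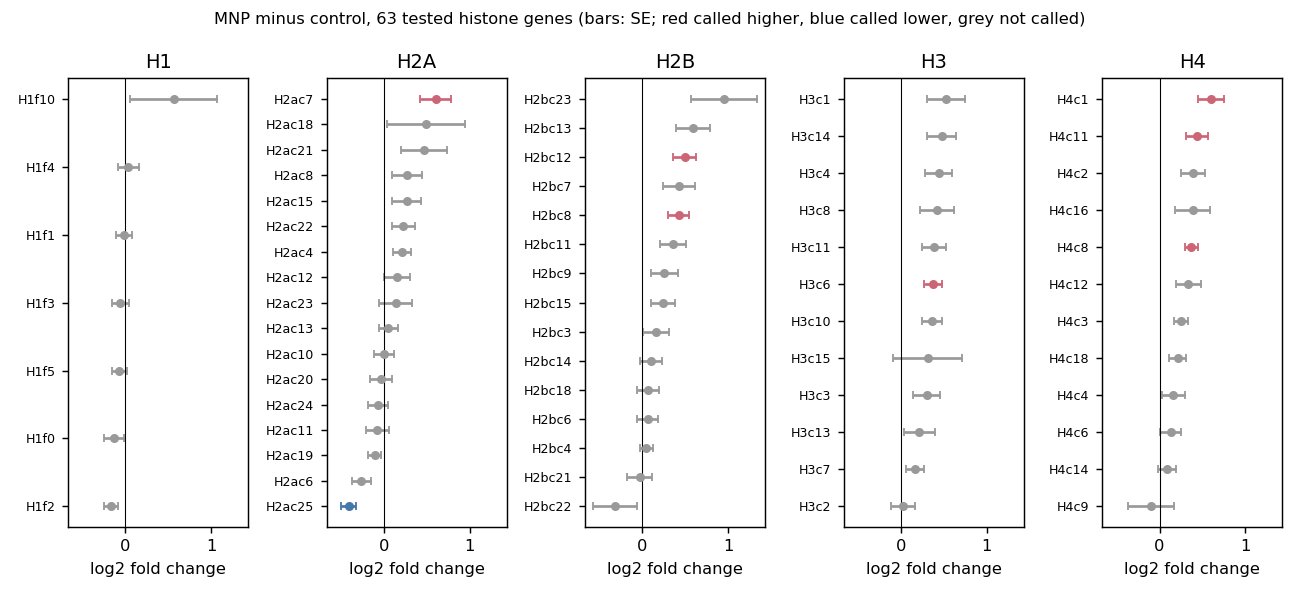
Log2 fold change of MNP over control (x axis, bars show SE) for the 63 tested histone genes, 1 panel per class and ordered by size; red genes were called higher, blue lower and grey not called by edgeR. The H3 panel and most of the H2B and H4 panels lie to the right of 0, the H1 genes other than H1f10 lie close to it, and H2ac25 is the only blue point.

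H4 forms the inner core of the nucleosome with H3, and its many genes encode nearly the same protein from diverged coding sequences. H4c8 was at 56.6, 60.2 and 62.4 scaled CPM in controls 1 to 3 and at 76.7, 83.7 and 71.3 in MNP samples 1 to 3. All MNP samples were above all controls, with a log2 fold change of 0.37 ± 0.07 (SE) and an edgeR adjusted p of 0.00347. Of its 100-base windows 38.5% occur in another gene. H4c1 was at 18.1, 25.3 and 27.7 scaled CPM in controls and 30.3, 43.4 and 34.1 after MNP, a log2 fold change of 0.60 ± 0.15 and an edgeR adjusted p of 0.0151. The groups did not overlap, and MNP sample 2 was the highest; without it the adjusted p was 0.0976.

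H4c11 was less abundant, at 9.49, 11.2 and 11.1 scaled CPM in controls and 14.0, 16.7 and 12.6 after MNP. Its groups did not overlap, the log2 fold change was 0.44 ± 0.13 and the edgeR adjusted p was 0.0328, which became 0.0675 with DESeq2 and 0.0779 by library totals. The most abundant H4 genes were H4c4, H4c18 and H4c8. H4c4, which shares no 100-base window with another gene, was at 63.8, 87.7 and 94.1 scaled CPM in controls and 81.6, 110 and 83.1 after MNP, with overlapping groups, a log2 fold change of 0.16 and an edgeR adjusted p of 0.466. H4c18 was at 63.9, 89.0 and 82.0 in controls and 84.6, 95.7 and 92.1 after MNP, with overlapping groups and an edgeR adjusted p of 0.175. The level of H4c14, a chromosome 3 gene with no shared window, was 19.5 ± 1.58 (SD, n = 3) scaled CPM in controls and 20.7 ± 2.25 after MNP. Within H4, the called genes were thus not the ones with the fewest shared windows.

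H3 genes encode the H3.1 and H3.2 proteins that are laid down with H4 behind the replication fork. H3c6 was at 20.8, 20.4 and 25.0 scaled CPM in controls and 25.8, 30.9 and 29.3 after MNP. All MNP samples were above all controls, the nearest being control 3 and MNP sample 1, with a log2 fold change of 0.38 ± 0.10 and an edgeR adjusted p of 0.0235. The edgeR adjusted p was 0.0642 by library totals, and 0.118, 0.0900 and 0.103 without MNP sample 2, MNP sample 3 and control 2. H3c2 was the most abundant H3 gene, at 27.9, 37.0 and 37.1 in controls and 28.8, 43.0 and 32.1 after MNP. Its groups overlapped, and its log2 fold change of 0.03 turned to -0.06 by library totals.

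H3c14 was at 15.5, 22.2 and 22.4 scaled CPM in controls and 32.5, 30.9 and 20.1 after MNP. MNP sample 3 lay inside the control range, and the edgeR adjusted p was 0.0762. Every 100-base window of H3c14 also occurs in Gm20634. H3c10 and H3c4 had no overlap between the groups and adjusted p of 0.0524 and 0.0675 in edgeR, so they did not pass.

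Of the H2B genes, H2bc8 was at 21.3, 26.8 and 30.8 scaled CPM in controls and 32.0, 39.0 and 35.3 after MNP. The groups did not overlap, with control 3 close to MNP sample 1, the log2 fold change was 0.43 ± 0.12 and the edgeR adjusted p 0.0281. H2bc12 was at 15.8, 23.6 and 22.1 in controls and 26.4, 32.5 and 27.9 after MNP, again without overlap, with a log2 fold change of 0.49 ± 0.13 and an edgeR adjusted p of 0.0221. Both calls were lost by library totals, at edgeR adjusted p of 0.0658 and 0.0506, and without MNP sample 2 or MNP sample 3. That of H2bc8 was also lost without control 1 (edgeR adjusted p 0.0531) and without control 2 (0.0777). The abundant H2bc18 was at 103, 143 and 151 in controls and 117, 149 and 149 after MNP, and H2bc3 at 54.9, 85.5 and 98.8 and at 80.7, 95.6 and 90.9. Their groups overlapped and neither passed; H2bc18 went from a log2 fold change of 0.07 to -0.02 by library totals.

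Of the H2A genes, H2ac7 was at 4.84, 5.48 and 5.51 scaled CPM in controls and 7.06, 10.1 and 6.88 after MNP. The groups did not overlap, and MNP sample 2 stood above the others; the log2 fold change was 0.61 ± 0.18 and the edgeR adjusted p 0.0334. The call was lost with DESeq2 (adjusted p 0.0661), by library totals (0.0610) and without MNP sample 2 (0.180). It was also lost without control 1, 2 or 3, at edgeR adjusted p of 0.0616, 0.0703 and 0.0555. H2ac25 was at 30.9, 34.3 and 33.0 in controls and 26.1, 24.0 and 23.7 after MNP. All MNP samples were below all controls, with a log2 fold change of -0.41 ± 0.08 and an edgeR adjusted p of 0.00389. H2ac25 lies on chromosome 11 outside the large clusters, and 29.8% of its windows are shared with the annotated neighbour Trim17, which was at 1.63 to 2.68 scaled CPM in the 6 libraries and was not called (edgeR adjusted p 0.718).

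The abundant H2A genes did not pass. H2ac19, on chromosome 3, was at 217, 239 and 278 scaled CPM in controls and 218, 228 and 236 after MNP, with overlapping groups. It had the highest mean level of the 72 genes, at 601 scaled CPM per coding kilobase. H2ac24 was at 72.2, 111 and 102 in controls and 85.2, 94.5 and 93.0 after MNP. H2ac13 was at 46.0, 67.7 and 65.3 in controls and 60.6, 63.1 and 62.2 after MNP, a log2 fold change of 0.05 that was -0.04 by library totals.

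Linker histone H1 binds where DNA enters and leaves the nucleosome, and its genes share the fewest windows with other genes. H1f2 was at 150, 188 and 162 scaled CPM in controls and 140, 144 and 160 after MNP. MNP sample 3 lay inside the control range, the log2 fold change was -0.17 ± 0.08 and the edgeR adjusted p 0.177, which became 0.0356 by library totals and 0.0362 without control 1. H1f3 was at 107, 149 and 143 in controls and 123, 127 and 133 after MNP, and H1f4 at 87.7, 119 and 124 and at 93.3, 126 and 120. In both the groups overlapped, with log2 fold changes of -0.06 and 0.04; that of H1f4 was -0.05 by library totals.

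H1f0, a linker histone of resting cells, was at 24.3, 30.9 and 32.6 scaled CPM in controls and 24.0, 30.8 and 25.4 after MNP. The groups overlapped, with a log2 fold change of -0.13 ± 0.12 and an edgeR adjusted p of 0.510. H1f10 was at 0.391 to 0.467 in controls and 0.387 to 0.902 after MNP, which is 8 to 20 counts a library. The replacement H1 genes thus did not pass the test either.

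The calls are given next by position and by shared sequence. All 7 genes called higher lie on chromosome 13, where 49 of 54 members were tested and 14.3% were called higher. The median log2 fold change there was 0.23. Of all genes tested, 9.11% were called higher and 8.35% lower. On chromosome 3 all 10 members were tested, none was called by edgeR, 1 had an unadjusted p under 0.05, and the median was 0.15. A difference between the clusters was not tested. Among the 15 tested members with under 10% of windows shared, edgeR called none, 1 had an unadjusted p under 0.05, and the median was -0.01. The 25 with 10% to 50% shared had 5 calls higher (20%) and 1 lower (4%) and a median of 0.27. The 23 with 50% or more had 2 higher (8.70%, near the share of all genes) and a median of 0.23. The H1 genes make up a large part of the least shared group, and the part of shared reads in the calls was not tested.

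Near-identical copies did not always split their counts in the same way from library to library. In 4 pairs each gene holds at least 80% of the other's 100-base windows, namely H2bc23 with H2bc24, H2ac18 with H2ac19, H2ac23 with H2ac24, and H4c17 with H4c18. H2bc23 was at 65.5, 94.7 and 15.5 scaled CPM in controls and 104, 120 and 115 after MNP. The low value of control 3 is matched by its partner: H2bc24 was at 84.4 in control 3, at 7.76 and 0.338 in MNP samples 2 and 1, and had 0 counts in the other 3 libraries. In control 3 H2bc23 held 15.5% of the counts of the pair, and in the others 93.9% to 100%.

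Summed, an alternative chosen after seeing the data, H2bc23 and H2bc24 were at 65.5, 94.7 and 99.9 scaled CPM in controls and 105, 127 and 115 after MNP. The groups did not overlap, the log2 fold change was 0.42 ± 0.12 and the edgeR adjusted p 0.0341, whereas H2bc23 alone had a log2 fold change of 0.95 ± 0.39 and an adjusted p of 0.115. H2ac18 was at 7.81, 43.8 and 46.8 in controls and 25.3, 68.0 and 45.6 after MNP, so control 1 was far lower than the other controls. With its copy H2ac19 the pair was at 225, 283 and 325 in controls and 243, 296 and 282 after MNP, with an edgeR adjusted p of 0.921. The sums for the other 2 pairs did not pass, at 0.865 for H2ac23 with H2ac24 and 0.175 for H4c17 with H4c18.

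**Figure D4:**
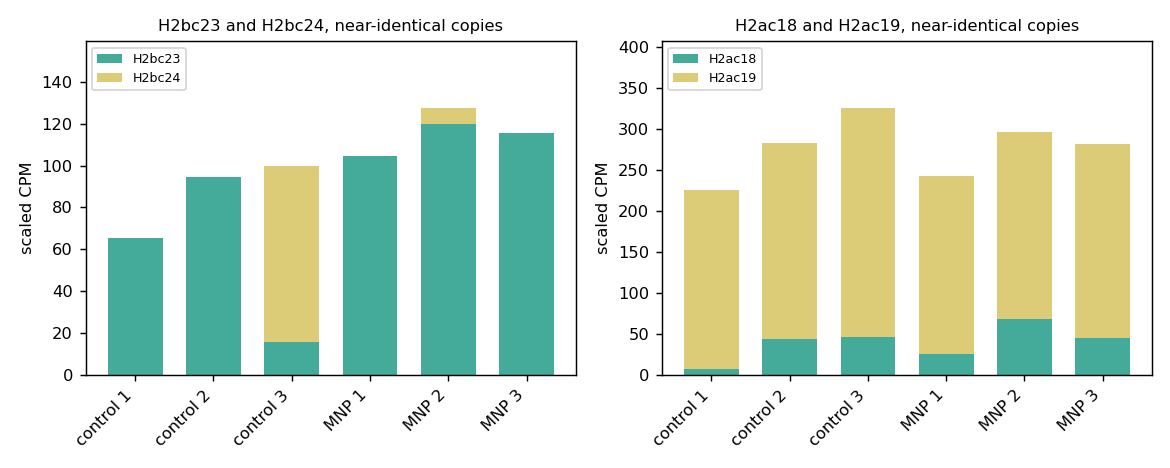
Scaled CPM (y axis) of 2 pairs of near-identical genes in each library (x axis), stacked so that the bar height is the sum of the pair. In control 3 most of the H2bc23 and H2bc24 bar belongs to H2bc24, and the pair sums are 65.5 to 99.9 in controls and 105 to 127 after MNP; the H2ac18 part of the second pair is smallest in control 1.

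Of the 9 members that did not pass the filter, 8 had at most 15 counts in any library: H1f6, H1f7, H1f8, H1f9, H2ac1, H2bc1, H2bc27 and H4c17. The other, H2bc24, had 1989 counts in control 3 and few elsewhere.

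Upstream of the genes, 3 sequence elements of histone promoters were searched in the 150 bases before the annotated start (RefSeq, build GRCm38.p6), which was on hand for 67 members. TATAA on the sense strand, part of a TATA box, stood in 30 of them, 44.8% against 10.6% of all 27025 promoters. CCAAT on either strand, the core of the site for the factor NF-Y, stood in 52, 77.6% against 25.3%. It was present in all 18 H2A and all 16 H2B promoters, in 7 of 11 H1, 8 of 10 H3 and 3 of 12 H4 promoters. ATTTGCAT on either strand, the octamer element known from H2B promoters, stood in 5 H2A and 5 H2B genes and in no other member, against 1.03% of all promoters. Where H2A and H2B genes start head to head (described further on), their windows overlap, and a site can count for both. The octamer of H2bc8 and that of H2ac8 are the same site, so these counts are not all of separate sites. None of these 3 strings contains another, and a match is a description only. The windows of 6 called genes are shown because they span the classes with calls, with the elements in capitals (ATTGG and ATGCAAAT are CCAAT and ATTTGCAT read on the other strand). They lie at chr13:23530894-23531043 (plus strand) for H4c8, chr13:23562386-23562535 (minus) for H3c6, chr13:23571250-23571399 (plus) for H2bc8, chr13:22035671-22035820 (plus) for H2bc12, chr13:23574231-23574380 (plus) for H2ac7 and chr11:58954535-58954684 (plus) for H2ac25.
H4c8: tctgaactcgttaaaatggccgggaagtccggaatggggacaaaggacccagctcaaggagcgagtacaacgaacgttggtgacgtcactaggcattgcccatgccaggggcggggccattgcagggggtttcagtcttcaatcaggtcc
H3c6: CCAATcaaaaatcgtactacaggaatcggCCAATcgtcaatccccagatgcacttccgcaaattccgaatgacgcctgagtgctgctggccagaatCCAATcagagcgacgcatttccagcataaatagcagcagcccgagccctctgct
H2bc8: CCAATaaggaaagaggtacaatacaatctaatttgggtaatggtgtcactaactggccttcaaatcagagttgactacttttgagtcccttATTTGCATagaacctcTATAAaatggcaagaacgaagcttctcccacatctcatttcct
H2bc12: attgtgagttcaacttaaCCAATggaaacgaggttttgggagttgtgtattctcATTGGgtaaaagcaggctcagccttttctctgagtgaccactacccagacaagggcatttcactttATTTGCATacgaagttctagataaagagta
H2ac7: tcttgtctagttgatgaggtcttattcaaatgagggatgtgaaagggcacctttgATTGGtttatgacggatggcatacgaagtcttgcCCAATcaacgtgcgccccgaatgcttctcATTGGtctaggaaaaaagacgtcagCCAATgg
H2ac25: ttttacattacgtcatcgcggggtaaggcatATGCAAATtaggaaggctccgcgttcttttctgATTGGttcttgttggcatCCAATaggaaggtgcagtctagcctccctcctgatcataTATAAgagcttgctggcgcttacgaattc
The window of H4c8, the gene with the smallest p, held none of the 3 elements, and that of H2ac25, the gene called lower, held all 3.

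Some H2A and H2B genes start head to head, so that 1 stretch of DNA lies upstream of both. The search covered the 67 members with a start on hand, so pairs with H2bc4, H2bc21, H3c1, H3c7 or H4c14 could not be found. Among those 67, 10 pairs had starts at most 1000 bases apart on opposite strands, with 164 to 281 bases between the starts. All 10 were H2A with H2B on chromosome 13. Both genes were tested in 8 pairs: in 6 both log2 fold changes were above 0 and in 2 the signs differed. In 3 pairs 1 partner was called higher and in none were both. H2ac7, called higher, faces H2bc7 across 174 bases, and H2bc7 was at 5.08, 7.13 and 8.57 scaled CPM in controls and 9.71, 10.5 and 7.89 after MNP, with overlapping groups and an edgeR adjusted p of 0.137. H2bc8 faces H2ac8 across 180 bases and H2bc12 faces H2ac12 across 178 bases, and these partners had log2 fold changes of 0.27 and 0.15 without passing.

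Histone variants outside the symbol rule are made in all cell cycle phases or for special uses. The list of 13 held H2aw, H2bu2 and H4f16, other names of the members H2ac25, H2bc27 and H4c16, which are not counted here. Of 8 tested, 1 rose and 3 fell, 12.5% and 37.5% against 9.11% and 8.35% of all genes, with a median log2 fold change of 0.02. H2az1, an H2A variant of promoters, was at 232, 283 and 284 scaled CPM in controls and 316, 324 and 324 after MNP, without overlap, with a log2 fold change of 0.27 ± 0.07 and an edgeR adjusted p of 0.0207 that became 0.0918 by library totals. Its sister gene H2az2 went the other way, from 14.1, 16.6 and 18.9 in controls to 10.7, 9.79 and 11.8 (log2 fold change -0.62, edgeR adjusted p 0.00399). H2aj fell by 0.49 on the log2 scale (edgeR adjusted p 0.00309). Cenpa, the H3 variant of the centromere, was at 22.96, 26.0 and 27.1 in controls and 16.3, 20.4 and 22.0 after MNP (edgeR adjusted p 0.0406, and 0.0764 with DESeq2).

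Genes that make, process or degrade histone messages were tested beside them: of 19, 1 rose and 1 fell, 5.26% each way against 9.11% and 8.35% of all genes, and the median log2 fold change was -0.02. Slbp, whose product binds the stem-loop, was at 47.5, 60.7 and 62.3 scaled CPM in controls and 51.1, 59.8 and 57.4 after MNP, with overlapping groups and an edgeR adjusted p of 0.921. Npat, the activator of histone transcription, was at 37.1, 38.0 and 39.9 in controls and 34.8, 39.9 and 37.5 after MNP, with an edgeR adjusted p of 0.805. Sympk, a scaffold of the cleavage complex, was at 51.9, 55.8 and 52.2 in controls and 69.8, 63.04 and 62.8 after MNP (log2 fold change 0.29, edgeR adjusted p 0.0118, and 0.0641 by library totals). Tut7, which adds uridines to the end of RNAs, fell by 0.24 (edgeR adjusted p 0.0151).

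Of 24 histone chaperones and assembly factors, 2 rose and 1 fell, 8.33% and 4.17% against 9.11% and 8.35% of all genes, with a median log2 fold change of 0.02. Nap1l1, a carrier of H2A and H2B, was at 210, 224 and 211 scaled CPM in controls and 268, 302 and 267 after MNP (log2 fold change 0.38 ± 0.06, edgeR adjusted p 0.000871). Rbbp7, a partner of the enzyme that acetylates new H4, was at 36.1, 35.7 and 31.5 in controls and 45.3, 41.4 and 50.6 after MNP (log2 fold change 0.41, edgeR adjusted p 0.00673). Daxx, a chaperone of the variant H3.3, was at 60.1, 42.7 and 47.1 in controls and 30.4, 28.7 and 33.5 after MNP (log2 fold change -0.69, edgeR adjusted p 0.000867). In all 3 genes the groups did not overlap.

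Since histone messages are tied to S phase, replication genes were set beside them. Of 45 tested, 3 rose and none fell by the edgeR test, 6.67% higher against 9.11% of all genes, and the median log2 fold change was 0.02. Pcna, the sliding clamp of the replication fork, was at 347, 356 and 346 scaled CPM in controls and 420, 466 and 442 after MNP (log2 fold change 0.34 ± 0.06, edgeR adjusted p 0.000849). Mcm6, part of the replicative helicase, rose by 0.22 (edgeR adjusted p 0.0251, and 0.148 by library totals) and Tk1, which makes thymidine phosphate, by 0.43 (edgeR adjusted p 0.0362, and 0.0523 with DESeq2). Of 20 genes of G2 and mitosis, none rose and 3 fell by the edgeR test, 15% lower against 8.35% of all genes, with a median of -0.11. These were Cenpf and Cenpe of the kinetochore and Ccnb2, a mitotic cyclin, with log2 fold changes of -0.37, -0.26 and -0.46 and edgeR adjusted p of 0.0121, 0.0136 and 0.0281.

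The low histone level of control 1 came with low cycle genes. The S phase genes summed to 1726 scaled CPM in control 1 and to 1949 and 1864 in controls 2 and 3, and the G2 and mitosis genes to 1319 against 1664 and 1638. In the MNP group, sample 1 was lowest, at 1888 against 2056 and 1989 for S phase and 1284 against 1537 and 1563 for G2 and mitosis. Without both libraries numbered 1, an alternative chosen after seeing the data, 10 histone genes were called higher and 3 lower, with H2bc23 among the former and its copy H2bc24 among the latter. Of the members tested in that fit, 15.4% were higher and 4.62% lower, against 9.51% and 7.90% of all genes. The log2 ratio of the class sums was then 0.23 for H3 and 0.19 for H4. Library 1 of each group thus had the lowest histone, replication and mitotic sums of that group, and whether this reflects the share of dividing cells was not tested. The gene Gm26917 took 0.382% of counts in control 1, against 0.251% and 0.286% in controls 2 and 3. In MNP sample 1 it took 1.02%, against 0.266% and 0.444% in samples 2 and 3. Control 1 had counts for 24062 genes, against 20935 and 20222 in controls 2 and 3. The part of these differences in the low sums was not tested.

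**Figure D5:**
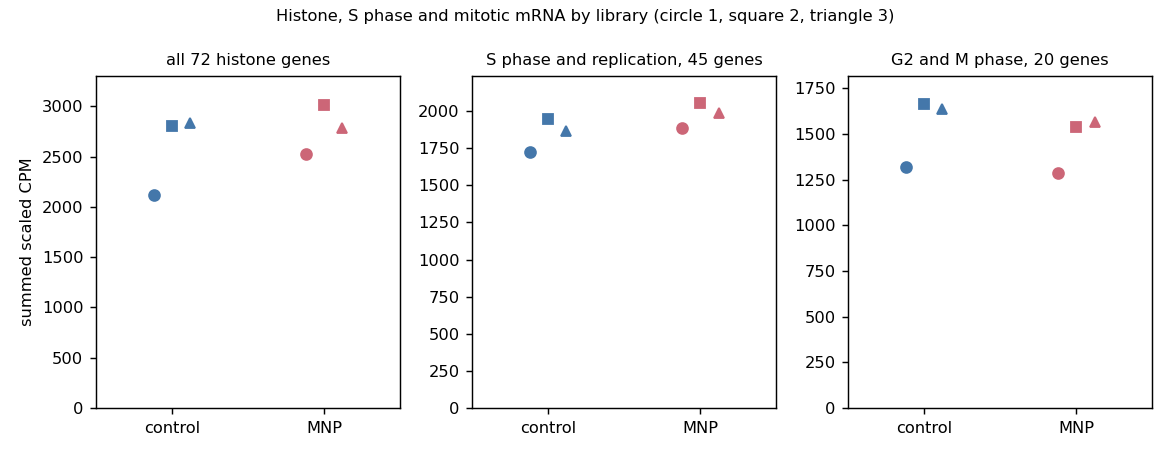
Summed scaled CPM (y axes, linear from 0) of the 72 histone genes, 45 S phase genes and 20 G2 and mitosis genes in each library; circles, squares and triangles are libraries 1, 2 and 3 of each group (x axis). The circle is the lowest point of its group in all panels, and the groups overlap in each.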

How the data were processed

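The authors deposited raw counts per gene, as whole numbers, in 1 table for each library. The submitters' processing notes name fastp, STAR, Salmon, GATK and the build GRCm39 without roles or versions; no source used here gives the annotation, the strand setting or any use of molecular identifiers. Sample titles gave the groups and the replicate numbers. Replicate pairs differed by 6.65 to 17.6 in chi-square per degree of freedom, so none looked like 1 library deposited again. The test was edgeR 4.0.16 (R 4.3.3) with TMM factors, the default filter and the quasi-likelihood F test. P-values were adjusted by Benjamini-Hochberg over 12893 genes and called under 0.05. SE was obtained from the log2 fold change and its F statistic. The steps were tested on simulated data. Scaled CPM divides counts by the tested-gene total times the TMM factor; 1 count was worth 0.0424 to 0.0483. Class sums carry no p-value. Members and lists were chosen with earlier results of these data known. Genes named are the called members, the 3 most abundant of each class, single H1 genes, and up to 4 called genes per list with Slbp and Npat; others were named after their values were seen. Members were matched to GENCODE vM21 and RefSeq (GRCm38) by synonym (66), name pairs given by hand (5) or symbol (1). Results were recomputed with library totals, RLE or upper-quartile factors, no filter or a stricter one, DESeq2 1.42.0, limma-voom 3.58.1, a replicate block, adjusted p under 0.01, and omission of each library. Summing or leaving out near-identical copies, changes to the class shares and omission of both libraries numbered 1 were added after seeing the data.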

Additional observations from a re-analysis of the deposited data

How the results depend on the processing

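The 7 histone genes called higher became 2 by library totals, 23 with no filter, 20 with the replicate block, 1 at an adjusted p under 0.01, and 1 to 9 when 1 library was left out (1 without MNP replicate 2, 4 without control replicate 1). The 1 called lower became 3 by library totals, 2 with no filter, 3 without both libraries numbered 1, and 1 to 6 when 1 library was left out. Over all genes, 1174 higher and 1076 lower became 757 and 1941 by library totals and 685 and 587 at the stricter threshold, and 672 to 1004 were lower when 1 library was left out. RLE and upper-quartile factors, the stricter filter, DESeq2 and voom gave 5 to 9 histone genes higher and 1 lower. Same-numbered libraries correlated at 0.10, 0.04 and -0.02 in their deviations from the group means, and at 0.12, 0.08 and 0.03 over the tested members; not every pair is over 0.1, so the numbers were not taken to pair the libraries. With the block, 31.7% of tested members were higher against 11.1% of all genes. With no filter it was 31.9% against 5.32%, the latter over many genes that had failed the filter on low counts.

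Class-sum log2 ratios moved by less than 1 SD between replicates under all alternatives run. That SD was 0.166 to 0.236 on the log2 scale, above the size of the ratio itself for H1, H2A, H2B and all members. The ratio of all members changed sign within it, so this yardstick does not show that a ratio held. The H2A share difference moved to -1.03 percentage points without the near-identical pairs. Among the genes that the naming rule takes, signs turned for 10 that were not called; this does not cover the other genes named in the text. By library totals the log2 fold change was -0.052 for H1f4, -0.035 for H2ac13, -0.024 for H2bc18 and -0.062 for H3c2. H2ac13 was at -0.082 without both libraries numbered 1 and Slbp at 0.012 with no filter. When 1 library was left out, the log2 fold change ran from -0.19 to 0.035 for H1f3, -0.097 to 0.16 for H1f4, -0.18 to 0.00096 for H2ac19, -0.22 to 0.067 for H2ac24, -0.095 to 0.16 for H2ac13, -0.081 to 0.18 for H2bc18, -0.042 to 0.35 for H2bc3, -0.16 to 0.15 for H3c2, -0.13 to 0.059 for Slbp and -0.080 to 0.019 for Npat. The cause was not tested. Depth limits the weak members: 3 counts were worth 0.127 to 0.145 scaled CPM, counting error only.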
